A study of Mus musculus with 2 samples.

Results

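The genes examined here encode the T cell receptor complex, its coreceptors and the kinases, adaptors, exchange factors, calcineurin-NFAT components and inhibitors that act directly behind it. They were taken from a fixed list of 44 gene symbols, of which 43 had a probe set with that symbol in the platform annotation, out of 19505 genes measured. Lck was not analysed here. Mouse CD8 T cells, isolated from spleen and lymph node, were primed on plate-bound anti-CD3 with soluble anti-CD28, polarized for 3 days and kept for 2 more days with recombinant human IL-2 at 10 ng/mL, and their total RNA was taken at day 5. Tc9 cells were polarized with IL-4 at 10 ng/mL, TGF-beta at 1 ng/mL and an anti-interferon gamma antibody at 20 µg/mL, to favour interleukin 9 producers. Tc1 cells, the type that makes interferon gamma, were polarized with recombinant human IL-2 at 10 ng/mL. Both cultures had thus been stimulated through the T cell receptor itself, and the labels name no strain, sex or age of the mice and no pooling of animals. Each culture was hybridized to 1 Affymetrix array, so there is no replicate check, and every difference below describes 1 pair of arrays.

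The T cell receptor has no enzyme activity of its own. It signals through tyrosine motifs of the CD3 and zeta chains, which are phosphorylated by the SRC-family kinases LCK and FYN, LCK being brought in by CD8 or CD4, and then bind the kinase ZAP70. ZAP70 phosphorylates the adaptors LAT and SLP-76, and the assembly that forms on them activates phospholipase C gamma 1, from which calcium opens the calcineurin-NFAT route and diacylglycerol opens the RASGRP1-RAS and PKC theta-NF-kB routes. Surface receptors such as CD5 and ubiquitin ligases such as CBL-B lower the strength of the signal, and in CD8 T cells they set how strongly a given antigen is answered.

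Signals are log2 of the deposited probe set intensity, and differences are log2 Tc9 minus log2 Tc1. The source name of the sample titled Tc9 reads Tc1. It was placed by its title, and on that array Il9 had a log2 signal of 8.45, against 4.82 on the Tc1 array, and Tbx21, which encodes the type 1 factor T-bet, 6.50, against 9.56. A gene counted as detectable when its signal was 6.43 or more on at least 1 array, which is the median over all genes and both arrays. All 43 genes were detectable by this rule, and 42 of them reached the threshold on both arrays, Trat1 on the Tc1 array being the exception. The defining markers of CD8 T cells were far above the threshold: Cd3e stood at 12.80 on the Tc9 array and 12.92 on the Tc1 array, and Cd8a at 11.93 on the Tc9 array and 12.19 on the Tc1 array. The CD4 T cell markers gave a mixed picture. Cd4 was above the threshold at 8.74 on the Tc9 array and 9.33 on the Tc1 array, a difference of -0.59. Zbtb7b was also above it, at 8.38 on the Tc9 array and 8.03 on the Tc1 array, a difference of 0.35. Cd40lg was below the threshold at 4.41 on the Tc9 array and 4.56 on the Tc1 array.

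Of the 43 genes, 2 were at least 2-fold higher on the Tc9 array, Trat1 and Tec, and 3 were at least 2-fold lower, Cd5, Cd6 and Cblb. The other 38 lay within 2-fold. The higher ones made up 4.65% of the 43 genes, against 2.62% of all 10147 detectable genes. The lower ones made up 6.98% of the 43 genes, against 2.79% of all detectable genes. The median difference of the 43 genes was 0.04 and that of all detectable genes was 0.05. The median size of the difference, whatever its sign, was 0.26 for the 43 genes and 0.23 for all detectable genes. At 1.5-fold, 3 of the 43 were higher and 6 lower, where 7.80% of all detectable genes were higher and 6.78% lower. Among genes at or above the threshold on both arrays, 1 of 42 was 2-fold higher and 3 of 42 were 2-fold lower, against a background of 1.58% and 1.88%. Counts this small were not tested, since there is 1 array per culture. Centring both arrays on the median of all probe sets raised every difference by 0.11 and turned the 266 higher and 283 lower genes of the whole array into 329 and 229. Relative to that shift Cblb stood at -0.97, just inside 2-fold, and the other 4 genes stayed outside it.

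**Figure D1:**
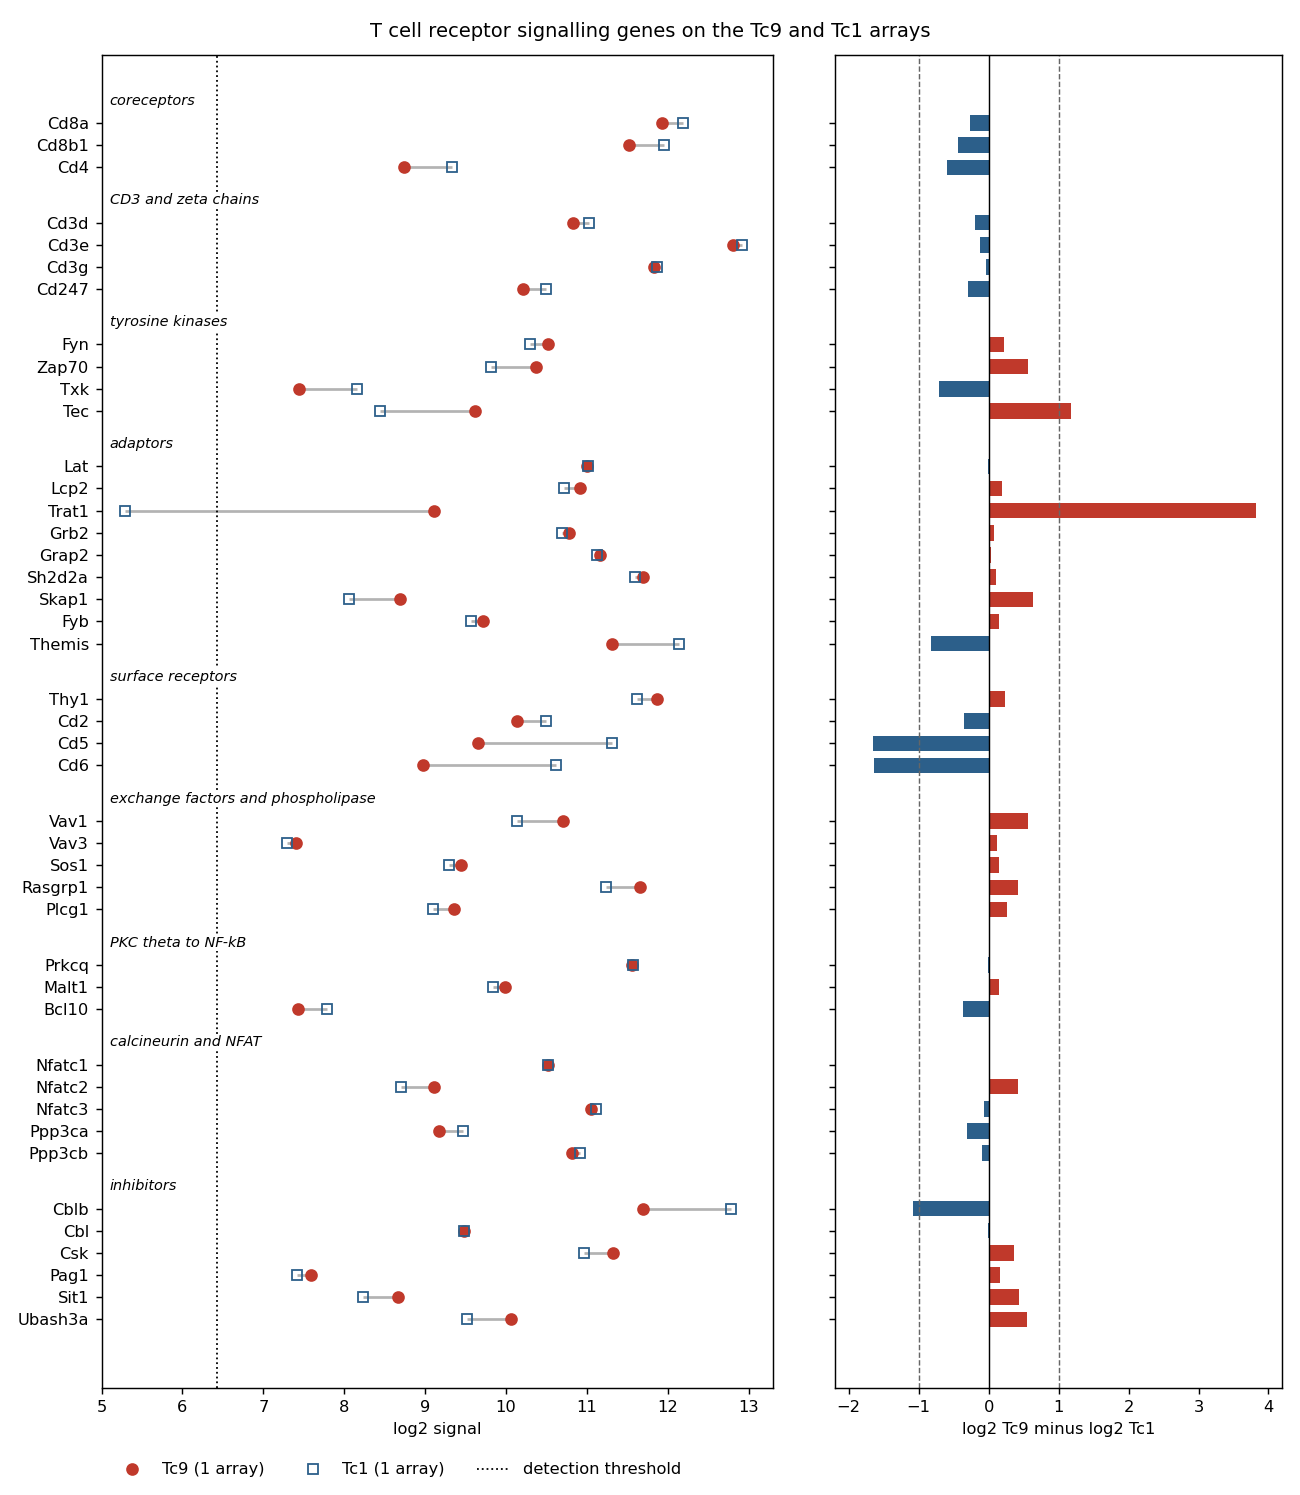
Log2 signal of each of the 43 genes on the Tc9 array (filled circles) and the Tc1 array (open squares), grouped by role, with the detection threshold of 6.43 as a dotted line, and on the right the log2 difference, Tc9 minus Tc1, with dashed lines at 2-fold. The symbols of most genes lie close together, while Trat1 and Tec extend to the right on the Tc9 array and Cd5, Cd6 and Cblb to the left. There is 1 array per culture and no error bar.

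No promoter window was found for Cd6, which also passed 2-fold. Promoter sequences are shown for Trat1, Tec, Cd5 and Cblb, which passed 2-fold, and for Txk, which lies beside Tec on the chromosome and differed the other way. Each is the stretch of 250 bases before a RefSeq transcript start on GRCm38.p6, written 5′ to 3′ on the strand of the gene. All of these genes except Cblb are on the minus strand. The windows are chr16:48772063-48772312 for Trat1, chr5:72868449-72868698 for Tec, chr5:72752778-72753027 for the upstream start of Txk, chr19:10738975-10739224 for Cd5 and chr16:52031299-52031548 for Cblb. Capitals mark every match, on either strand, to 4 motifs: TTCNNNNGAA (STAT6-type, the factor behind IL-4), GTCTG (SMAD-type, behind TGF-beta), GGAAA (NFAT-type) and TGTGGT (RUNX-type). Neighbouring matches can overlap or join into 1 run of capitals.
Trat1: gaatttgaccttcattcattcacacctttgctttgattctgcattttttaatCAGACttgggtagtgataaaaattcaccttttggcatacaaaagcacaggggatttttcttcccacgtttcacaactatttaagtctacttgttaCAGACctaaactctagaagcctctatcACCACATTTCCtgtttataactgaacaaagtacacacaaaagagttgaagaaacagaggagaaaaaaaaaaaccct
Tec: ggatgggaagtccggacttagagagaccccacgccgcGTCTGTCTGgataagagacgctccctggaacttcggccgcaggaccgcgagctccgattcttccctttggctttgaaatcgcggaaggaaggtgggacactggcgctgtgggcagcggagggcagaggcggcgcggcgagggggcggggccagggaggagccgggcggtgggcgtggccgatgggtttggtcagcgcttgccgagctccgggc
Txk: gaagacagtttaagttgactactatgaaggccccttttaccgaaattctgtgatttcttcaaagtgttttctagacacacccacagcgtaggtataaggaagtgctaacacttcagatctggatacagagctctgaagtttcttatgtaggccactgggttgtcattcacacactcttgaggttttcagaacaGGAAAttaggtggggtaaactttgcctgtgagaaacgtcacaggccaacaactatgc
Cd5: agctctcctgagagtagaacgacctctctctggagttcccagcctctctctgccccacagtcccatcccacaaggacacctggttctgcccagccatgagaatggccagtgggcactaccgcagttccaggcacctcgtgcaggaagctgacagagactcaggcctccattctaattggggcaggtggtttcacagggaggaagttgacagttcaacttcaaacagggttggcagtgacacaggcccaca
Cblb: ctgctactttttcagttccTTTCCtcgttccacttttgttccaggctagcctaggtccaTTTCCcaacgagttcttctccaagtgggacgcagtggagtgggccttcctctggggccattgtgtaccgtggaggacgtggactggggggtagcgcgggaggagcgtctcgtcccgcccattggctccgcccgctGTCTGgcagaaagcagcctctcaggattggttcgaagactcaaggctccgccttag

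None of the 5 windows held the STAT6-type letters. Trat1 held 2 SMAD-type matches and 1 each of the NFAT-type and RUNX-type, Tec held 2 SMAD-type matches, Cblb 1 SMAD-type and 2 NFAT-type matches and Txk 1 NFAT-type match. The window of a second, downstream Txk start, not printed, held 2 NFAT-type matches and 1 RUNX-type match. Cd5 held none of the 4. Such short letters are common: of 32851 promoter windows of the same length, 42.2% held the SMAD-type, 55.6% the NFAT-type, 14.0% the RUNX-type and 5.85% the STAT6-type. Promoter windows were found for 32 of the 43 genes, 42 windows in all, of which 20 held the SMAD-type, 28 the NFAT-type, 4 the RUNX-type and 2 the STAT6-type. These matches describe letters in the windows and show no binding.

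The receptor chains and coreceptors were all slightly lower on the Tc9 array and all within 2-fold. Over all 10147 detectable genes, 4432 lay below 0. Cd3e, the CD3 epsilon chain, had signals of 12.80 on the Tc9 array and 12.92 on the Tc1 array. Cd3g, the gamma chain, had 11.83 on the Tc9 array and 11.87 on the Tc1 array. Cd3d, the delta chain, had 10.83 on the Tc9 array and 11.03 on the Tc1 array. These 3 genes lie side by side on chromosome 9 and differed by -0.04 to -0.20. Cd247, which encodes the zeta chain that carries most of the signalling motifs of the complex, had 10.21 on the Tc9 array and 10.50 on the Tc1 array, a difference of -0.29. Cd8a, the alpha chain of the CD8 coreceptor, differed by -0.26, and Cd8b1, the beta chain encoded next to it, had 11.52 on the Tc9 array and 11.96 on the Tc1 array, a difference of -0.44. Cd4, the coreceptor of helper T cells, was the farthest apart of this group, at 8.74 on the Tc9 array and 9.33 on the Tc1 array, or 1.51-fold lower. The median of these 7 genes was -0.26. After centring over all probe sets Cd3g turned to 0.07 and Cd3e stood at -0.01, while the other 5 genes kept their sign. In bulk RNA, fewer cells of a type and less RNA per cell cannot be told apart.

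The tyrosine kinases differed in both directions. Tec, a kinase that acts on phospholipase C gamma 1, had a signal of 9.62 on the Tc9 array and 8.44 on the Tc1 array, 2.26-fold higher. Txk, also called RLK, a TEC-family kinase of T cells that lies directly next to Tec on chromosome 5 with no coding gene between them, had 7.44 on the Tc9 array and 8.16 on the Tc1 array, 1.64-fold lower. The neighbouring genes of 1 kinase family thus had opposite signs, with differences of 1.18 and -0.71. Zap70, the kinase that binds the phosphorylated zeta chain, had 10.37 on the Tc9 array and 9.81 on the Tc1 array, 1.47-fold higher. Fyn, the SRC-family kinase that phosphorylates receptor motifs beside LCK, had 10.51 on the Tc9 array and 10.30 on the Tc1 array, a difference of 0.22.

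Among the 9 adaptors, 1 gene stood far from the others. Trat1 encodes TRIM, a transmembrane adaptor that associates with the receptor and the zeta chain. Its signal was 9.11 on the Tc9 array, and 5.28 on the Tc1 array, below the detection threshold. It was therefore at least 6.40-fold higher, with a measured difference of 3.82, and at least 3.86-fold higher with the higher floor of 7.16, the 95th percentile of the negative control probe sets. Themis, an adaptor required for thymocyte selection that tunes receptor signal strength, had 11.32 on the Tc9 array and 12.14 on the Tc1 array, 1.77-fold lower. Skap1, an adaptor that links the receptor to integrin activation, had 8.69 on the Tc9 array and 8.06 on the Tc1 array, 1.55-fold higher. Its partner Fyb, which encodes ADAP, had 9.72 on the Tc9 array and 9.56 on the Tc1 array.

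The adaptors of the central LAT and SLP-76 assembly hardly differed between the arrays. Lat, the membrane scaffold, had 11.00 on the Tc9 array and 11.01 on the Tc1 array. Lcp2, which encodes SLP-76, had 10.91 on the Tc9 array and 10.72 on the Tc1 array. Grap2, which encodes GADS, the bridge between LAT and SLP-76, differed by 0.04. Grb2, which brings SOS to LAT, differed by 0.08, and Sh2d2a, which encodes the LCK-binding adaptor TSAd, by 0.10. The median of the adaptors was 0.10, and 8 of the 9 lay within 2-fold.

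Cd5 and Cd6 were the genes with the lowest differences of all 43. Both encode scavenger-receptor type glycoproteins that associate with the receptor, and CD5 is known as a brake whose level follows the strength of receptor signalling in thymocytes. Cd5 had 9.66 on the Tc9 array and 11.31 on the Tc1 array, 3.15-fold lower. Cd6 had 8.98 on the Tc9 array and 10.62 on the Tc1 array, 3.11-fold lower. The 2 genes are direct neighbours on chromosome 19, and their differences, -1.66 and -1.64, were alike in sign and size. B-1 cells also carry CD5, and the B cell markers were lower on the Tc9 array as well. The 4 detectable of 5 measured markers, Cd79a, Cd79b, Ms4a1 and Blnk, had differences between -0.97 and -0.42, and Btk reached the threshold on neither array. The summed intensity of the 4 was 1805 on the Tc9 array and 2984 on the Tc1 array. Of 3 measured NK cell markers, only Eomes was detectable, at 8.15 on the Tc9 array and 9.21 on the Tc1 array. Ncr1 and Klrb1c were below the threshold, at 3.93 and 4.22 on the Tc9 array and 4.88 and 5.72 on the Tc1 array. Whether the Eomes signal came from NK cells or from the T cells was not tested. Of 4 measured macrophage and dendritic cell markers, only Lyz2 was detectable, at 8.79 on the Tc9 array and 8.36 on the Tc1 array. Csf1r, Adgre1 and Itgax were below the threshold, at 6.11, 5.80 and 6.41 on the Tc9 array and 5.94, 5.02 and 5.35 on the Tc1 array. All 4 had higher signals on the Tc9 array. The part of other cells in the Cd5 and Cd6 differences was not tested. The remaining surface genes lay within 2-fold. Cd2, an adhesion receptor that costimulates T cells, had 10.14 on the Tc9 array and 10.49 on the Tc1 array, and Thy1, the pan-T cell glycoprotein, had 11.86 on the Tc9 array and 11.62 on the Tc1 array.

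**Figure D2:**
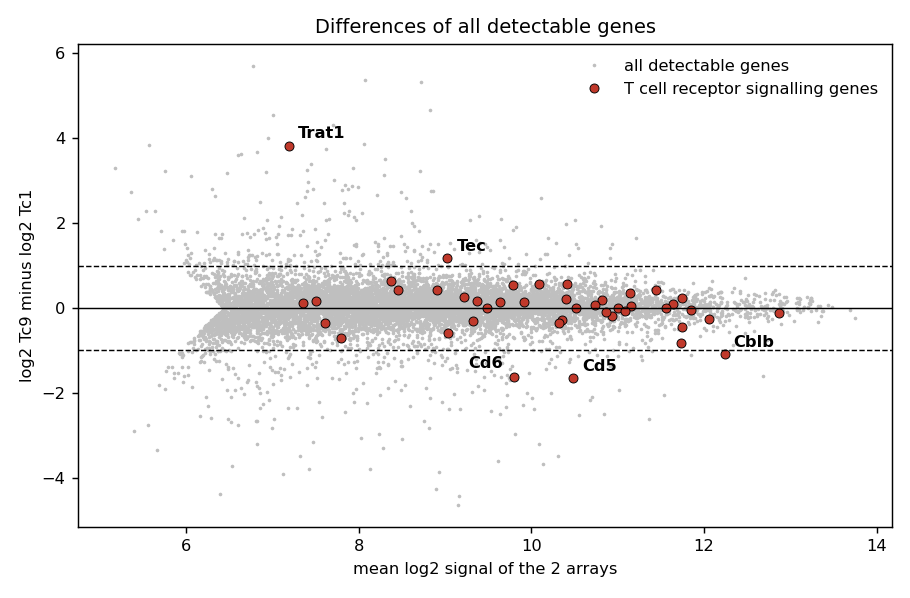
Log2 difference, Tc9 minus Tc1, against the mean log2 signal of the 2 arrays for all 10147 detectable genes (grey) and the 43 genes of T cell receptor signalling (red). Dashed lines mark 2-fold. Trat1 and Tec lie above the upper line and Cd5, Cd6 and Cblb below the lower line, with Cblb among the brighter genes.

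The exchange factors and the phospholipase all had higher signals on the Tc9 array, each within 2-fold. Over all 10147 detectable genes, 5715 lay above 0. Relatives outside the list differed in both directions. Vav2 (-0.52), Sos2 (-0.43), Rasgrp2 (-0.11) and Rasgrp3 (-1.14) lay below 0, and Rasgrp4 (2.81, dim on the Tc1 array) and Plcg2 (0.02) above. Vav1, the exchange factor that drives cytoskeletal change at the synapse, had 10.70 on the Tc9 array and 10.13 on the Tc1 array, 1.48-fold higher. Rasgrp1, which activates RAS in answer to diacylglycerol, had 11.65 on the Tc9 array and 11.23 on the Tc1 array, 1.34-fold higher. Plcg1, phospholipase C gamma 1, had 9.35 on the Tc9 array and 9.10 on the Tc1 array. Sos1, the GRB2-bound RAS activator, differed by 0.15, and Vav3, a relative of Vav1, by 0.12. The 5 genes had a median of 0.26, where all detectable genes had 0.05. Centring raises every difference here, so it could not turn these signs. Under quantile normalization, which could, the 5 genes stayed above 0, with a median of 0.20.

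Downstream, the genes of PKC theta and its NF-kB route were close on both arrays. Prkcq, which encodes PKC theta, differed by -0.01, a sign that turned after centring and after quantile normalization. Malt1, the paracaspase of the CARMA1 complex, had 9.99 on the Tc9 array and 9.84 on the Tc1 array. Bcl10, which links CARMA1 to MALT1, had 7.42 on the Tc9 array and 7.79 on the Tc1 array, 1.29-fold lower.

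The calcineurin-NFAT genes were likewise within 2-fold. Nfatc2, the NFAT factor present in resting T cells, had 9.11 on the Tc9 array and 8.70 on the Tc1 array, 1.33-fold higher. Nfatc1, the NFAT factor with an inducible short form, differed by 0.01 and Nfatc3 by -0.06, and both signs turned under at least 1 scaling, Nfatc1 under quantile normalization and Nfatc3 under centring. Ppp3ca, the alpha catalytic subunit of calcineurin, had 9.17 on the Tc9 array and 9.47 on the Tc1 array, 1.24-fold lower. Ppp3cb, the beta catalytic subunit, differed by -0.09, and by 0.02 after centring over all probe sets.

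Among 6 inhibitors of receptor signalling, the ubiquitin ligase gene Cblb was 2-fold lower on the Tc9 array and the other 5 lay within 2-fold. Cblb, whose product keeps T cells from full activation without CD28 costimulation, had 11.70 on the Tc9 array and 12.78 on the Tc1 array, 2.11-fold lower. Cbl, a close relative of Cblb, had 9.48 on the Tc9 array and 9.49 on the Tc1 array. Ubash3a, which encodes STS-2, a member of the phosphatase-like family that damps ZAP70 signalling, had 10.06 on the Tc9 array and 9.51 on the Tc1 array, 1.46-fold higher. Sit1, a transmembrane adaptor that recruits inhibitors, had 8.67 on the Tc9 array and 8.24 on the Tc1 array, 1.35-fold higher. Csk, the kinase that switches off LCK and FYN, had 11.32 on the Tc9 array and 10.96 on the Tc1 array, 1.28-fold higher. Pag1, the membrane anchor of CSK, differed by 0.17. Of the inhibitors, 4 lay above 0 and 2 below, with a median of 0.26, where all detectable genes had 0.05. Of the 2 below, Cbl differed by only -0.004 and turned to 0.11 after centring over all probe sets.

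**Figure D3:**
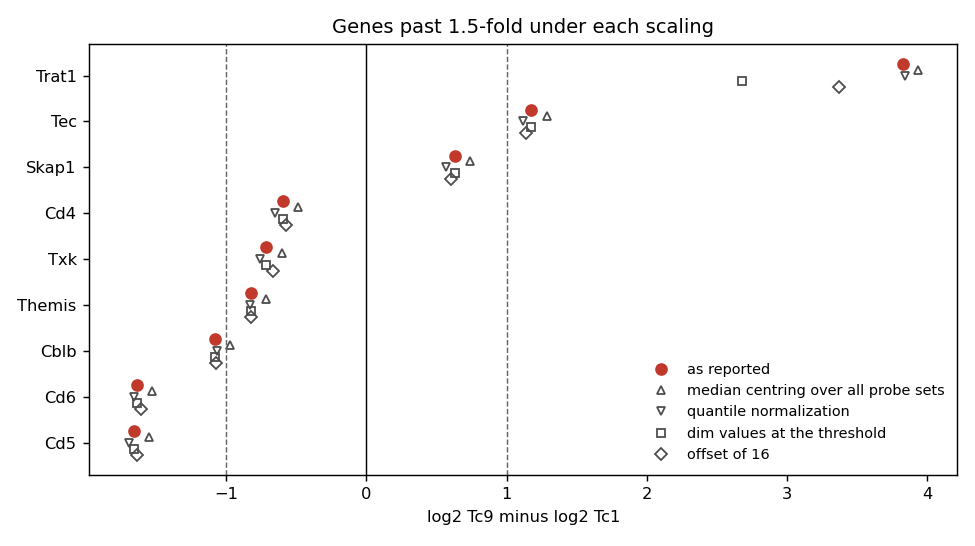
Log2 difference, Tc9 minus Tc1, of the 9 genes past 1.5-fold, as reported (red) and under 4 other treatments of the values (open symbols), with dashed lines at 2-fold. Cblb crosses the 2-fold line after centring over all probe sets, and Trat1 moves most, to 2.68, when the dim Tc1 value is set at the detection threshold.

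The wider pathway was read from lists of other proximal, RAS and MAP kinase, calcium, NF-kB and inhibitor genes. Of 107 listed genes, 90 were measured and 86 detectable. Of these 86, none was 2-fold higher on the Tc9 array and 1 was 2-fold lower, where the background was 2.62% and 2.79%, and the median difference was 0.02. The gene past 2-fold was Sh2d1a, which encodes SAP, the adaptor that couples SLAM-family receptors to FYN. It had 9.02 on the Tc9 array and 10.31 on the Tc1 array, 2.46-fold lower. The NF-kB list had the lowest median, -0.14, with 10 of 14 detectable genes below 0. Over all 10147 detectable genes, 4432 lay below 0 and the median was 0.05. Centring over all probe sets raises every difference by 0.11. Rel, which encodes the lymphoid NF-kB subunit c-Rel, had 10.25 on the Tc9 array and 11.22 on the Tc1 array, 1.96-fold lower, and stayed short of 2-fold. Rela, encoding the p65 subunit, differed by -0.15. The 15 detectable genes of the RAS and MAP kinase list had a median of -0.10, the 16 of the calcium list 0.11, the 18 other proximal genes 0.03 and the 23 other inhibitors 0.09. The lists were not tested against the 43 genes.

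**Figure D4:**
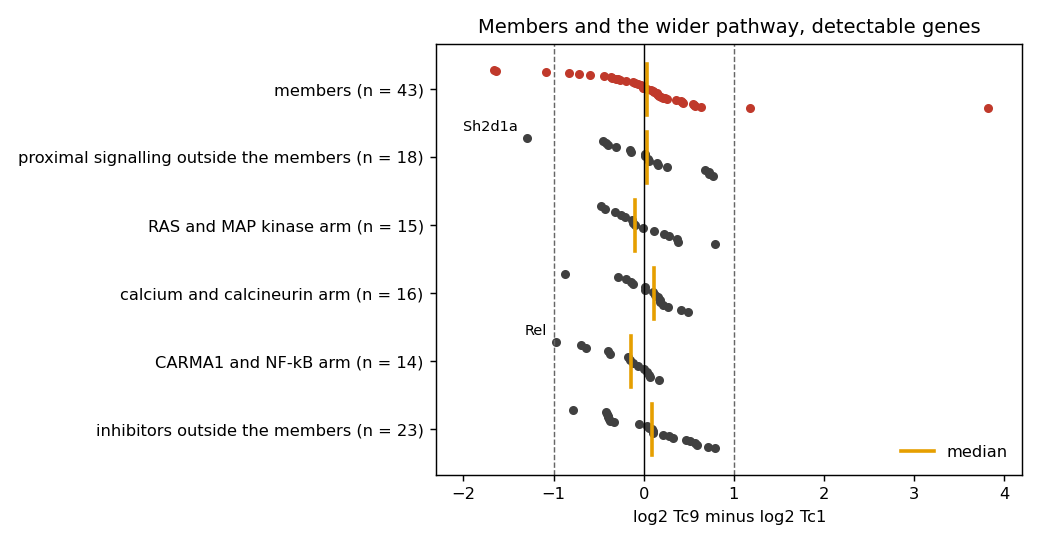
Log2 difference, Tc9 minus Tc1, of each detectable gene among the 43 genes (red) and in 5 lists of the wider pathway (dark), with the median of each list as an orange bar and dashed lines at 2-fold. Sh2d1a is the only gene of the wider lists beyond 2-fold, and Rel lies just inside the line.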

How the data were processed

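Total RNA of Tc9 and Tc1 cells was measured on 1 array each. RNA isolated with Trizol was labelled with biotin for whole-transcript sense targets, per the labels' protocols. The deposited values are probe set intensities on a linear scale, from 4.87 to 14977. How probes were summarized, corrected for background and normalized is not given in the sources used here. The arrays had similar quantiles, with median intensities of 53.1 on the Tc9 array and 57.2 on the Tc1 array, so log2 intensities were used without further scaling. That they were normalized before deposit is inferred from these quantiles.

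Probe sets were named from the platform annotation. Each of the 43 genes had 1 probe set, and all 43 gene identifiers matched RefSeq. No probe coordinates are given, since no array build is named. The deposited table holds no detection calls. The threshold of 6.43 is the median over all genes and both arrays, and where 1 array lay below it a fold is given as at least the value computed with the threshold in its place. The 95th percentile of the 5222 negative control probe sets was 7.16. Of these controls 585 reached 6.43 on at least 1 array, and 16.2% of the 585 differed by 2-fold or more. With 1 array per group there is no test, p-value or standard error, and the number of arrays limits the precision.

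The 43 genes and all lists were chosen with earlier results of these data known. Every gene of the 43 is given. Genes of the wider lists are named where they passed 2-fold. Rel, Rela, the relatives of the exchange factors and the phospholipase, and the genes of the closing section were named after their values were seen. Of the wider lists, 17 genes were not analysed here. Promoter windows came from RefSeq. Alternatives were other scalings, detection rules, fold thresholds, probe set rules and an offset of 16. Values were computed with python 3.11.15, numpy 2.4.6 and pandas 2.3.3.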

Additional observations from a re-analysis of the deposited data

How the results depend on the processing

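Cd5, Cd6, Tec and Trat1 kept their direction and stayed beyond 2-fold under quantile normalization and an offset of 16. Median centring over genes raises every difference by 0.07 and could not have brought these 4 inside 2-fold. Setting dim values at the threshold could alter only Trat1, which stayed beyond 2-fold at 2.68. The mean of probe sets could alter none of the 43 genes, since each had 1 probe set. The following ranges cover every setting tried, including centring on all probe sets. Differences ran from -1.69 to -1.55 for Cd5 and from -1.66 to -1.53 for Cd6. For Tec they ran from 1.12 to 1.28 and for Trat1 from 2.68 to 3.93. Centring on all probe sets, chosen after seeing the data, moved the median of the 43 genes to 0.15, against 0.04, and left 2 lower genes, since Cblb reached -0.97. Requiring the threshold on both arrays, also chosen after seeing the data, left 1 higher gene, since Trat1 was dim on the Tc1 array. The 1.5-fold threshold gave 6 lower genes among the 43, against 3, and 14 past it in the wider lists, against 1. Of those 14, 8 were higher and 6 lower, among 86 detectable genes. Over all detectable genes, 7.80% were 1.5-fold higher and 6.78% lower. Without a detection filter the wider lists held 2 genes past 2-fold, because Rnf128, below the threshold on both arrays, was added. No difference past 2-fold changed sign. Of the smaller ones, Cd3g, Lat, Prkcq, Nfatc1, Nfatc3, Ppp3cb and Cbl changed sign under at least 1 scaling. The share of higher genes among all genes past 2-fold was 48.5%, and 59.0% after centring over all probe sets. No paired analysis was possible because each culture has 1 array. Differences well under 2-fold have no replicate spread to be set against.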

Other observations

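Relatives of the receptor signalling genes, listed after the values above were seen, were read in the same way. Of 30 relatives outside the 44 genes, 27 were measured and 18 detectable, of which 1 was 2-fold higher on the Tc9 array and 2 were 2-fold lower, where the background over all detectable genes was 2.62% and 2.79%. Among the 14 at or above the threshold on both arrays, 0 were 2-fold higher and 1, Rasgrp3, was 2-fold lower. Rasgrp4, the RASGRP exchange factor known from mast cells, had a log2 signal of 8.88 on the Tc9 array and 6.07 on the Tc1 array, below the threshold, and was at least 5.46-fold higher, or at least 3.30-fold with the negative control floor of 7.16, while Rasgrp1 of T cells differed by 0.42. Themis2, the THEMIS relative of B cells and macrophages, had 5.68 on the Tc9 array, below the threshold, and 8.04 on the Tc1 array, at least 3.05-fold lower, or at least 1.84-fold with that floor, while Themis was 1.77-fold lower. Rasgrp3, an exchange factor of B cells, had 6.46 on the Tc9 array and 7.60 on the Tc1 array, 2.20-fold lower, or at least 1.36-fold with that floor.

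Of the 18 detectable relatives, 6 were above 0 and 12 below, where 5715 of all 10147 detectable genes were above 0 and 4432 below. The relatives had a median difference of -0.24, against 0.05 for all detectable genes. At 1.5-fold, 1 was higher and 6 lower, against 7.80% and 6.78% of all detectable genes. The other relatives named here, also picked after their values were seen, lay within 2-fold. Syk, Blnk, Vav2, Blk and Prkce were lower, and Prkcd and Plcg2 higher, Plcg2 by only 0.02. Blk, a relative of Fyn, had 5.95 on the Tc9 array, below the threshold, and 6.90 on the Tc1 array. Prkce, a relative of Prkcq, had 6.14 on the Tc9 array, also below it, and 7.07 on the Tc1 array. Both lay under the negative control floor of 7.16 on both arrays. Syk, the relative of Zap70, had 7.84 on the Tc9 array and 8.54 on the Tc1 array. Blnk, the relative of Lcp2, had 6.92 on the Tc9 array and 7.78 on the Tc1 array, and Vav2 had 7.82 on the Tc9 array and 8.34 on the Tc1 array. Plcg2, the relative of Plcg1, had 7.57 on the Tc9 array and 7.56 on the Tc1 array, and Prkcd, a relative of Prkcq, had 10.55 on the Tc9 array and 10.35 on the Tc1 array. What part other cells in the cultures have in these values was not tested.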
